A study of Mus musculus with 6 samples.

Results

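The mouse miRNAs numbered miR-3057 to miR-3106 are a run of consecutively numbered miRNAs, taken here from a miRNA array of CT26 cells, a mouse colorectal carcinoma line. Members were chosen by name alone: every mouse probe from miR-3057 to miR-3106, with any letter or arm. They came to 107 of the 1126 mouse probes on the array, covered 50 numbers, and 2 of them carry a pair of names. A member was called measured where its mean background-subtracted intensity reached 50 on at least 3 of the 6 arrays, and low otherwise. By that rule 32 members (29.9%) were measured and 75 were low, against 340 of the 1019 other mouse probes (33.4%).

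The 6 arrays came from CT26 cells stably transfected with the pSUPER gfp-neo vector. In the knockdown line the vector carried a short hairpin RNA against TGF-β1, and in the control line it carried a control hairpin, so the vector with its gfp and neo genes is common to both. A single array was run for each line at 24, 48 and 72 h, from cultures grown and harvested separately per the labels. The labels word the times as hours transfected yet call the transfection stable, so what the hours count from is not settled. How many clones a line holds was not stated in the sources used here, and the array carries no probe for the TGF-β1 transcript, so the knockdown itself was not measured.

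A miRNA is cut from a hairpin whose 2 arms give a 5p and a 3p strand. Usually 1 of the strands is loaded into an Argonaute protein and the other is degraded. The loaded strand pairs with messenger RNAs chiefly through its seed, bases 2 to 8, and lowers their translation or stability. TGF-β1 is a secreted cytokine that signals through SMAD transcription factors, which are known both to induce miRNA genes and to bind the Drosha complex that cuts miRNA hairpins. A miRNA's number follows the order of naming and says nothing of its family or targets.

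Mature sequences were found in RefSeq (GRCm38.p6) for 92 of the 107 members and for 29 of the 32 measured ones. Shown here are those that belong to measured members with differences of 2-fold or more at 2 time points. Those of both arms of miR-3081 and miR-3084 and of miR-3068-3p and miR-3098-3p are shown too. The last 2 were measured on all 6 arrays and were lower in the knockdown line at 72 h. Each sequence is written 5′ to 3′ with the seed in capitals.
miR-3069-3p: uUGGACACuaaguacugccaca
miR-3070a-5p and miR-3070b-5p: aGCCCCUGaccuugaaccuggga
miR-3084-5p: gUUGAAGGuuaauuagcagagu
miR-3084-3p: uUCUGCCAgucuccuucagac
miR-3093-5p: cGCACCCCgcggagcucacacu
miR-3102-3p: gAGCACCCcauuggcuacccaca
miR-3081-5p: gACUGGAGcuuggagcggugagc
miR-3081-3p: uUGCGCUCcgaucucugagcugg
miR-3068-3p: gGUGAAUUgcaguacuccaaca
miR-3098-3p: uUCUGCUGccugccuuuagga
Each of these seeds is different. The 5p strands of miR-3070a and miR-3070b are identical over their whole length, and 1 probe is named for both. No sequence was found for the miR-3096 probes, and none is shown for them.

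In RefSeq GRCm38.p6 miR-3069-3p lies at chr12:105031078-105031099 on the minus strand, within the bounds of Snhg10, a small nucleolar RNA host gene, and of the guide RNA gene Scarna13. The identical miR-3070 5p strands lie at chr12:109587959-109587981 and chr12:109588608-109588630 on the plus strand within the bounds of Rtl1, an imprinted gene derived from a retrotransposon. Both miR-3084 strands have 2 genomic copies on chromosome 19, with miR-3084-5p at chr19:24942276-24942297 within Cbwd1 and at chr19:60774370-60774391 within Eif3a, a subunit of a translation initiation factor, all on the minus strand. The array cannot tell the 2 copies apart. miR-3081-5p lies at chr16:44558092-44558114 on the minus strand within Boc, a co-receptor of Hedgehog signalling. miR-3068-3p lies at chr12:87437685-87437706 on the minus strand within Alkbh1, a nucleic acid demethylase, and miR-3098-3p lies at chr6:125195845-125195865 on the plus strand outside the bounds of any other gene in the table. miR-3093-5p lies at chr3:88215186-88215207 on the plus strand within the long non-coding RNA Gm3764, and miR-3102-3p lies at chr7:100882307-100882329 on the minus strand. Of 48 member hairpins located, 44 lay within the bounds of another gene and 40 within a protein-coding one. The strand of these genes was not compared, so here and below a miRNA within a gene may lie on its opposite strand. Exons were not annotated in the tables used, so exonic and intronic positions are not given.

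Shared seeds were few among the members. miR-3064-5p and miR-3085-3p, both low, share the seed CUGGCUG and differ after it.
miR-3064-5p: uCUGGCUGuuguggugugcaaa
miR-3085-3p: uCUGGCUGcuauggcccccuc
The low strands miR-3070a-3p and miR-3070b-3p share GGUGCUA, and the low strands miR-3073a-5p and miR-3073b-5p share UGGUCAC. Outside the members, the seed GGGCCUG of miR-3091-3p recurs in miR-2861 and the seed UUCCUCU of miR-3059-5p in miR-5616-5p, and both of those other miRNAs were measured while the members were low.

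All arrays gave signal in a like number of members. Members at 50 or more numbered 36, 34 and 27 on the knockdown arrays of 24, 48 and 72 h and 34, 33 and 30 on the control arrays, and the share of other mouse probes at 50 or more lay between 28.3% and 33.4%. Median background lay between 89 and 181. On the control array of 72 h, 588 of 15840 spots had a local background above 3 times the array's median, 587 of them in the lower blocks 19 to 36. Every mouse probe has 2 spots in blocks 1 to 18 and 2 in blocks 19 to 36, so that region touched 9 spots of 5 measured members: miR-3062-3p, miR-3072-3p, miR-3080-5p, miR-3081-5p and miR-3102-3p.2-3p. On the knockdown array of 48 h the lower spots of 6 measured members differed from the upper ones by more than 1 log2 unit, as they did for 16.1% of all tested probes. For the members that the results turn on, values of these arrays are given for the upper and lower spots as well.

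CT26 cells were checked against miRNAs that mark other cells a culture could hold. All 5 fibroblast markers were measured, with summed intensities between 1438 and 5245 in the knockdown line and between 3324 and 5136 in the control line, which overlap. Of 5 blood markers 3 were measured, with sums between 1058 and 2554 in the knockdown line and between 1249 and 1998 in the control line, and miR-223-3p and miR-451a reached 50 on no array. Of the intestinal epithelial markers, miR-192-5p, miR-194-5p and miR-141-3p reached 50 on no array, whereas miR-200c-3p and miR-375-3p were measured, with sums between 144 and 349 in the knockdown line and between 245 and 544 in the control line. Of 5 neuron, muscle and liver markers 2 were measured, with sums between 54.8 and 772 in the knockdown line and between 168 and 337 in the control line, and miR-1a-3p and miR-122-5p reached 50 on no array. The part of such cells in the results below was not tested, and fewer cells of a type cannot be told apart from less RNA per cell in these extracts.

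**Figure D1:**
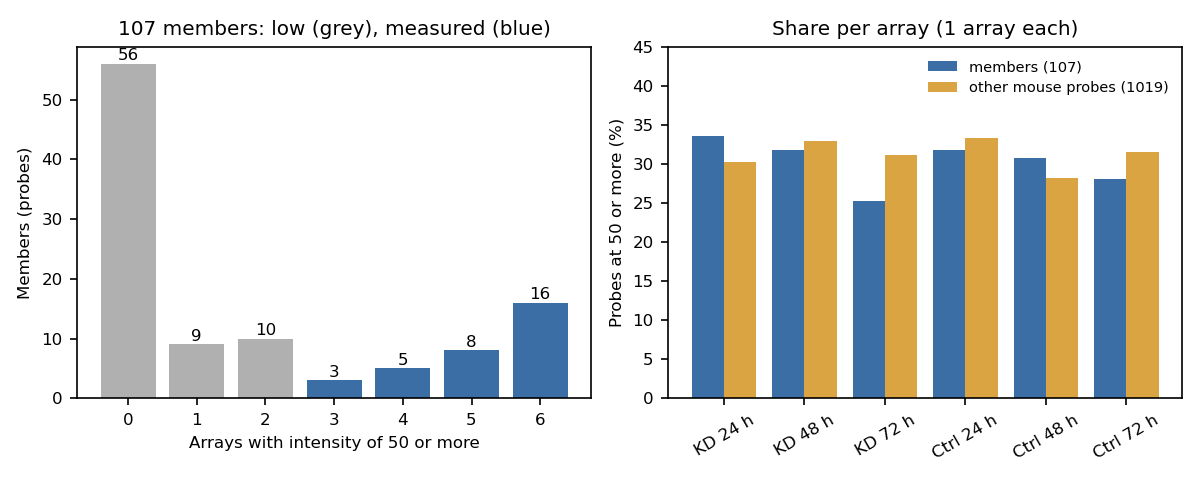
The left bars give how many of the 107 members reached an intensity of 50 on each number of arrays, from 56 members on none to 16 on all 6; the right bars give the percent of members and of the 1019 other mouse probes at 50 or more on each array. Members and other probes reached 50 in like shares, between 25.2% and 33.6% for the members.

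Strands of the 3p arm made up most of the measured members: 22 of 54 3p probes were measured against 10 of 53 5p probes. The split by arm was not counted among the other mouse probes, so whether it is particular to these members is not known. Measured on all 6 arrays were 16 members, on 5 arrays 8, on 4 arrays 5 and on 3 arrays 3. The 3 at the edge of the rule were miR-3072-5p, miR-3096a-5p and miR-3102-3p.2-3p. Just outside it, 10 members reached 50 on 2 arrays, and the highest of their values was 1313 for miR-3096b-5p on the knockdown array of 48 h. Intensity below means the background-subtracted brightness averaged over a probe's 4 spots, and values are always given in the order 24, 48 and 72 h. Differences are knockdown minus control on normalised log2 intensity, in which 1 is a doubling, and levels of different probes cannot be compared.

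Averaged over the 3 time points, no member passed the test between the lines. In limma's moderated test with the time point as a factor, 0 of 32 members passed a Benjamini-Hochberg adjusted p of 0.05, against 0% of all 372 tested probes. At an unadjusted p under 0.05 there were 0 members and 1 probe in all. The smallest adjusted p of a member was 0.998. Without both arrays of 48 h, 3 probes passed, and 1 of them was a member: the mean of miR-3096a-3p was then -3.34 (limma adjusted p = 0.0084). That fit has 1 residual degree of freedom and leaves out the only time point with a positive difference of this probe, 4.28. The negative mean follows from that omission. In all, 14 members were higher and 18 lower in the knockdown line, with a median difference of -0.22, beside -0.11 over all tested probes. The 95% interval of a member's difference reached a median of 1.32 to either side, which is wider than 2-fold. Between the lines 3 of 32 members (9.38%) had the same sign at all 3 time points, compared with 13.7% of all tested probes. They were miR-3103-3p, higher each time, and miR-3084-5p and miR-3090-3p, lower each time. For miR-3103-3p the differences at 24 and 48 h, 0.04 and 0.06, were smaller than their spot standard errors of 0.33 and 0.29.

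The 3 largest mean differences in either direction had standard errors between 0.57 and 0.81. miR-3081-5p had the largest positive one, 1.12 ± 0.81 (SE, n = 3 arrays a line). miR-3080-5p followed with 0.98 ± 0.57 and miR-3096a-5p with 0.69 ± 0.65. The first 2 came out lower with fewer spots or arrays. With upper spots alone their means were 0.48 and 0.38, and without both arrays of 72 h -0.22 and 0.40. For miR-3081-5p the knockdown array of 72 h was also the brightest of the 6, at 1372. miR-3084-5p had the largest negative one, -1.08 ± 0.65. The miR-3070a-5p/miR-3070b-5p probe followed with -1.06 ± 0.66 and miR-3069-3p with -1.04 ± 0.72. All 6 had overlapping lines. Only miR-3090-3p had no overlap, with normalised log2 levels of 7.70, 8.02 and 7.40 in the knockdown line, all below 8.05, 8.19 and 8.22 in the control line. Its intensities were 45.5, 98.75 and 15.25 in the knockdown line, below 50 at 24 and 72 h, and 113, 132.5 and 123.25 in the control line. The 3 control arrays were enough for it to count as measured. Its nearest levels, 8.02 and 8.05, lay closer than the spot standard error of its 48 h difference, 0.14. Of all tested probes 4.3% had all 3 knockdown arrays below all 3 control arrays, and 2.96% had them above, where no member did.

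**Figure D2:**
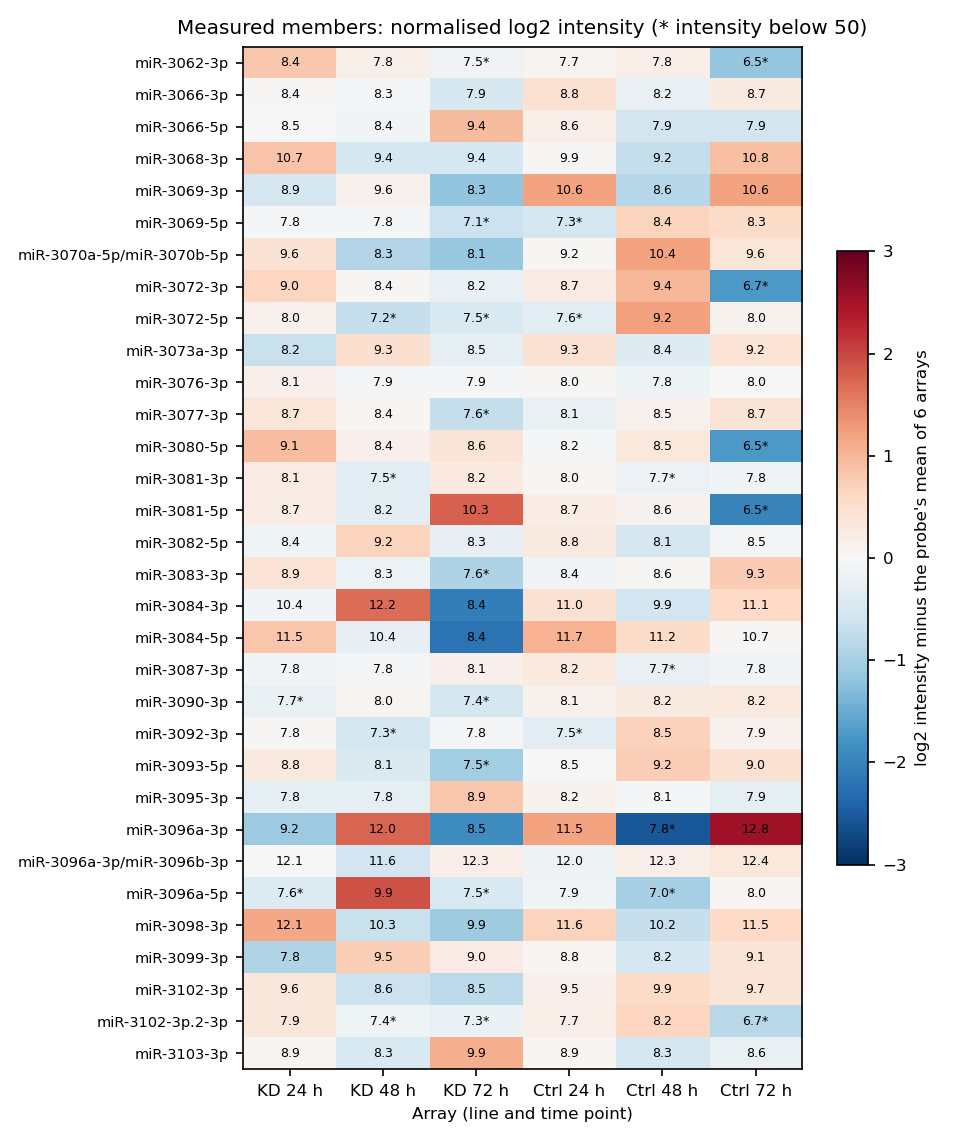
Each row is a measured member and each column an array; the numbers are normalised log2 intensities, a star marks an intensity below 50, and the colour gives the value minus the probe's mean over the 6 arrays, from -3 to 3. The widest row is miR-3096a-3p, from 7.8 to 12.8, and the row of the probe shared by miR-3096a-3p and miR-3096b-3p stays between 11.6 and 12.4.

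The only calls among the members came from miR-3096 probes. miR-3096a-3p had intensities of 400, 7496 and 267 in the knockdown line and 2689, 47.2 and 5695 in the control line. The lines thus changed places: its differences were -2.30 at 24 h, 4.28 at 48 h and -4.39 at 72 h. A limma term for the line at 48 h, which compares that difference with the ones at 24 and 72 h, came to 7.62 (95% interval 5.05 to 10.2, adjusted p = 4.24e-06). This term was chosen with the alternation already known, rests on 1 residual degree of freedom, and takes its spread mostly from the other probes. It passed for 3.49% of all tested probes, each relatively higher in the knockdown line, and for 2 of 32 members, while none was relatively lower (0%).

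miR-3096a-5p, from the other arm, was the other call. Its intensity was 28.5, 1445 and 28.5 in the knockdown line and 85, -76.8 and 94.2 in the control line, so it stood clear of background on the knockdown array of 48 h. The same term came to 3.31 (95% interval 1.33 to 5.30, adjusted p = 0.0335). The probe counted as measured only through that array and the control arrays of 24 and 72 h. High values on just these arrays raise the term, so the filter favoured the result and the call is not independent of it. Its 48 h difference came to at least 4.90-fold in favour of the knockdown line, with the control array below 50, over all spots, and the difference was 1.37 on the log2 scale with the lower spots alone. miR-3096b-5p, a low member, was also brightest on the knockdown array of 48 h, with intensities of -64.5, 1313 and 156 in the knockdown line and 0, -76 and -4.5 in the control line, and its 48 h ratio was at least 6.06-fold. At 72 h the 2 probes had opposite signs, with differences of 0.84 for miR-3096b-5p and -0.53 for miR-3096a-5p.

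A further probe reads the 3p strand of miR-3096a together with that of miR-3096b, and it did not share the alternation. Its intensities were 4007, 4948 and 4567 in the knockdown line and 3824, 5168 and 4464 in the control line, so the lines overlapped. Its differences were 0.16, -0.77 and -0.13, and the term for 48 h was -0.78 (adjusted p = 0.831). Both probes are named for miR-3096a-3p and did not show the same course over the arrays. The probe sequences, which would show what each binds, were not used here. The spots of the knockdown array of 48 h differed between upper and lower blocks for all of them. miR-3096a-3p read 12121 in the upper blocks and 2871 in the lower ones there. miR-3096a-5p read 2608 and 283, and miR-3096b-5p read 1746 and 879. The shared probe read 7384 and 2512. With the lower spots alone the 48 h term of miR-3096a-3p was 7.07 with an adjusted p of 0.178, and that of miR-3096a-5p 1.96 with 0.405, and with the upper spots alone both passed.

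**Figure D3:**
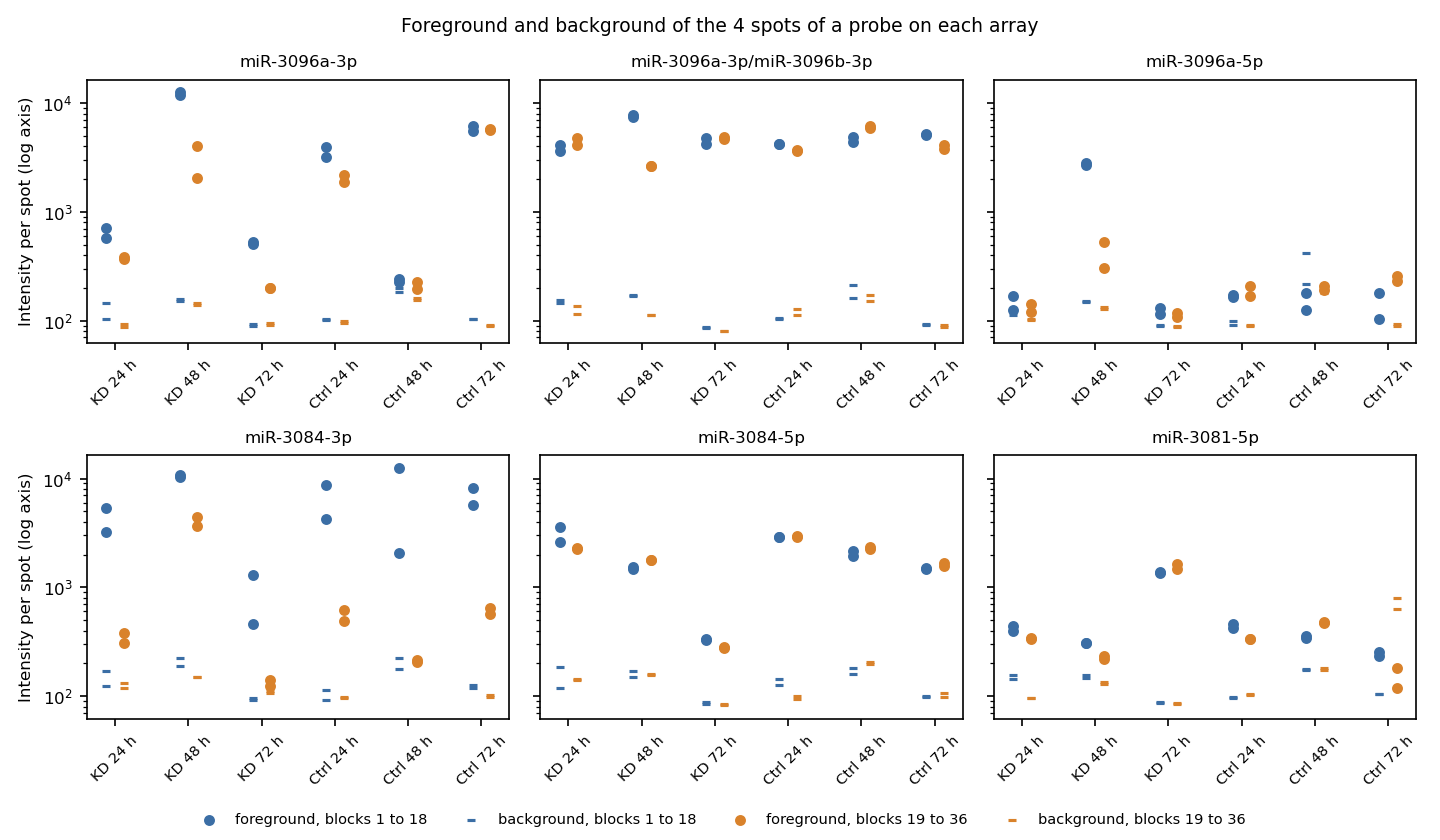
Each panel is a probe; dots give the foreground intensity of each of its 4 spots and dashes the local background on a log axis, blue for the 2 spots in blocks 1 to 18 and orange for the 2 in blocks 19 to 36, by array. The spots of miR-3096a-3p lie near background only on the control array of 48 h, the upper and lower spots of miR-3084-3p lie apart on every array, and the lower background of miR-3081-5p on the control array of 72 h lies above its foreground.

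miR-3084 was measured on all 6 arrays in both arms, from hairpins that RefSeq places at 2 loci. miR-3084-5p had intensities of 2533, 1487 and 218 in the knockdown line and 2793, 1986 and 1449 in the control line. It was lower on each later array of both lines and lowest on the knockdown array of 72 h. Its differences were -0.21, -0.80 and -2.24, so at 72 h the knockdown line was 4.73-fold lower. The slope over both lines, -1.01 per day (95% interval -1.78 to -0.24), had the smallest p of the members, 0.0148 before and 0.999 after limma's Benjamini-Hochberg adjustment. Its lower minus upper spots lay between -0.43 and 0.25 on the log2 scale on the 6 arrays.

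miR-3084-3p read 2189, 7128 and 407 in the knockdown line and 3389, 3537 and 3662 in the control line. The control line was level by these means while the knockdown line held both the highest and the lowest value. Its differences were -0.55, 2.23 and -2.68, with spot standard errors of 1.51 at 48 h and 1.26 at 72 h. The upper pair of spots was brighter than the lower pair on all 6 arrays, with lower minus upper between -4.69 and -1.38 on the log2 scale. On the control array of 48 h the upper spots read 7076 and the lower ones -3. The difference at 48 h was 0.46 with the upper spots alone and 4.13 with the lower ones alone. Its 48 h term, 3.84, did not pass (adjusted p = 0.0813).

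miR-3081 gave the largest positive difference at 72 h. miR-3081-5p had intensities of 256, 125 and 1372 in the knockdown line and 286, 236 and -210 in the control line. The differences at 24 and 48 h were -0.0038 and -0.44, and at 72 h the difference was 3.80. The size of that last value depends on how the background of the control array was taken. The knockdown array of 72 h was bright in both pairs of spots, at 1281 above and 1464 below. The control array of 72 h had a lower background of 708 under a foreground of 150, and its upper spots read 138. With the upper spots alone the difference was 1.81, and with each array's median background in place of the local one it was 2.51. The difference of the lines' slopes was 1.90 per day (95% interval 0.16 to 3.65) and did not pass in limma after Benjamini-Hochberg adjustment (adjusted p = 0.931). miR-3081-3p, from the other arm, stayed dim at 113, 14.5 and 146 in the knockdown line and 97, 36 and 60 in the control line, with differences of 0.19, -0.16 and 0.36.

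Members with the same region under them on the control array of 72 h followed. miR-3080-5p, whose hairpin lies within the transcriptional co-regulator Tcf20, read 366, 166 and 286 in the knockdown line and 134, 206 and -334 in the control line. Its difference of 2.13 at 72 h was 0.35 with the upper spots alone. miR-3072-3p read 335, 191 and 145 in the knockdown line and 254, 521 and -200 in the control line. Its difference of 1.49 at 72 h became -0.97 with the upper spots alone. miR-3062-3p, from a hairpin within the purine synthesis gene Pfas, read 174, 56.8 and 27.5 in the knockdown line and 60, 60.5 and -268 in the control line, and had the second smallest p of the slope, 0.028 before and 0.999 after limma's adjustment. On that control array its upper spots read 41 and its lower ones -577. Its slope was -0.54 per day, and that array enters it. miR-3102-3p.2-3p was at 50 or more on 3 arrays, with a highest value of 125.

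The time trends passed for no member. The slope per day called 0 of 32 members and 0% of all 372 tested probes in limma, with 2 members and 9 probes at an unadjusted p under 0.05. The difference of slopes called 0 members and 0% of all, with 1 member and 9 probes at an unadjusted p under 0.05. Terms for the line at 24 h and at 72 h called none in either direction (0% of all), with 0 and 3 members and 1 and 25 probes at an unadjusted p under 0.05. The 3 members at 72 h were miR-3081-5p, miR-3084-3p and miR-3096a-3p. These fits use the same 6 arrays and are not independent of each other. After miR-3081-5p, the smallest p of the difference of slopes belonged to miR-3069-5p and miR-3083-3p. miR-3069-5p read 51.8, 58 and -9.25 in the knockdown line and 4.75, 188 and 146 in the control line. miR-3083-3p read 315, 203 and 35.8 in the knockdown line and 205, 227 and 420 in the control line. Its upper and lower spots read 372 and 33 on the knockdown array of 48 h and 186 and 654 on the control array of 72 h. Both were lowest on the knockdown array of 72 h.

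At single time points there is 1 array of each line and no test, and differences are described at 2-fold. At 24 h, 0 of 42 members at 50 or more on either array were higher and 3 lower in the knockdown line, against 2.66% and 8.47% of all such mouse probes. The 3 were miR-3096a-3p, miR-3069-3p and miR-3073a-3p. At 48 h, 9 of 42 were higher and 8 lower, against 21.5% and 13.2%. At 72 h, 8 of 37 were higher and 13 lower, against 18.5% and 25.3%. The members' shares, 21.4% and 19% at 48 h and 21.6% and 35.1% at 72 h, lay near those of all probes for higher differences and above them for lower ones, which was not tested. The balance turned with the processing: at 72 h it was 13 higher and 4 lower with median scaling, and at 24 h 12 higher and 8 lower with a floor of 16 in place of normexp. Many rest on 1 dim side: a side was below 50 for 11 of 17 differences at 48 h and for 10 of 21 at 72 h, and the bound was under 2-fold for 4 and 6 of them.

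**Figure D4:**
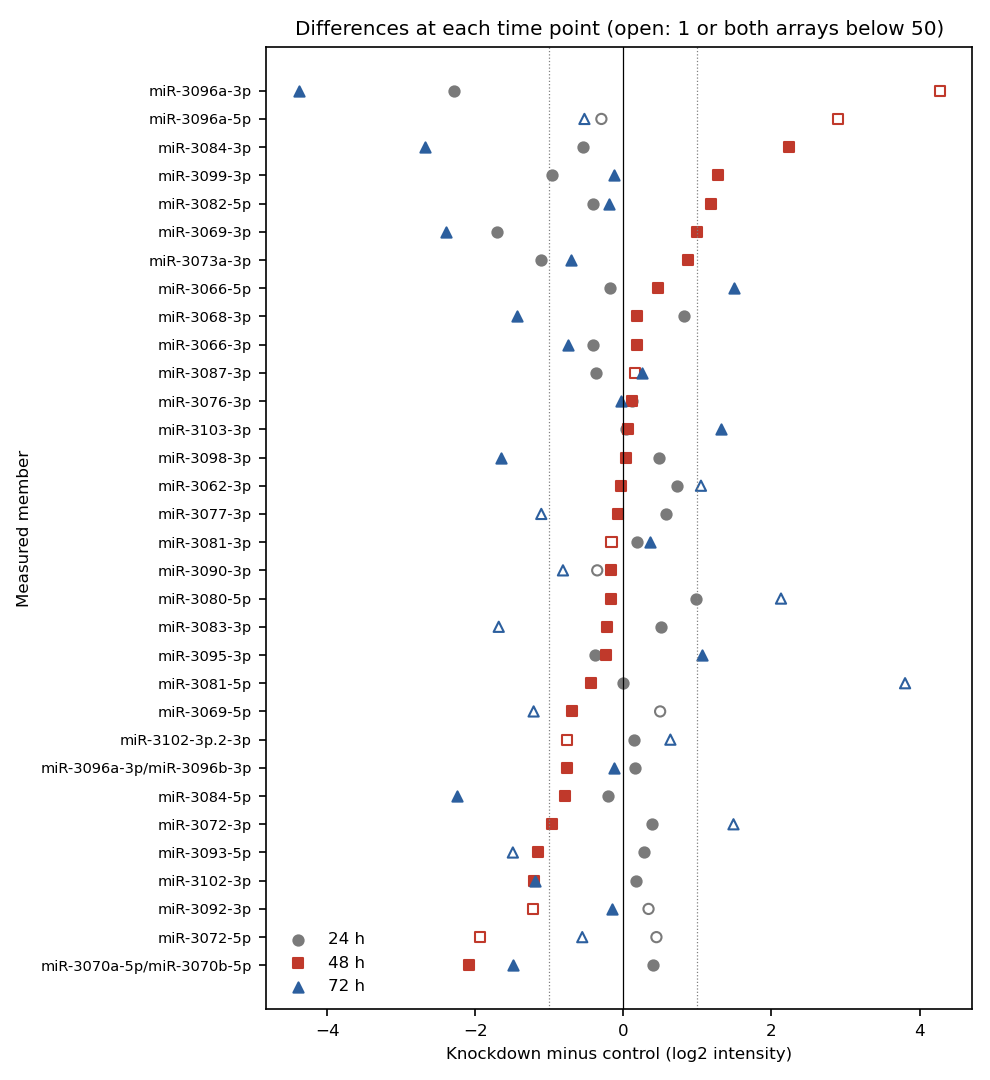
Each row is a measured member; the points give knockdown minus control on normalised log2 intensity at 24 h (circles), 48 h (squares) and 72 h (triangles), open where 1 or both arrays were below 50, with dotted lines at 2-fold. The 24 h points lie mostly within 2-fold, and miR-3096a-3p spans from -4.39 at 72 h to 4.28 at 48 h.

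The measured members past 2-fold at 2 or more time points were 6: miR-3096a-3p, miR-3084-3p, miR-3069-3p, the miR-3070 5p probe, miR-3093-5p and miR-3102-3p. The low member miR-3060-5p, described below, was also past 2-fold at 48 and 72 h, higher in the knockdown line each time. For miR-3096a-3p and miR-3084-3p, described above, the directions were opposite. miR-3069-3p read 321, 942 and 173 in the knockdown line and 1396, 227 and 1380 in the control line. The lines alternated in the same order as for miR-3096a-3p, with differences of -1.71, 1.00 and -2.39. Its 48 h term was 3.05 and did not pass (adjusted p = 0.241), and on the knockdown array of 48 h its upper spots read 1646 and its lower ones 237.

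The other 3 were within 2-fold at 24 h and lower in the knockdown line later. The miR-3070a-5p/miR-3070b-5p probe read 565, 159 and 122 in the knockdown line and 417, 1132 and 489 in the control line, with differences of 0.41, -2.09 and -1.49. miR-3102-3p read 559, 234 and 247 in the knockdown line and 519, 772 and 544 in the control line, with differences of 0.17, -1.21 and -1.19, the last of which turned to 0.29 under median scaling. miR-3093-5p read 266, 106 and 21.2 in the knockdown line and 212, 453 and 283 in the control line, with differences of 0.28, -1.16 and -1.49. In each the highest normalised level lay on the control array of 48 h and the lowest on the knockdown array of 72 h. miR-3072-5p, which like the miR-3070 strands comes from the imprinted region of chromosome 12 and lies within the lncRNA Mirg, was also highest on the control array of 48 h, at 421, and its difference there was -1.94, or at least 2.74-fold lower in the knockdown line. miR-3092-3p, within Fndc3b, read 199 on that array and -19.5 on the knockdown array of 48 h.

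G+C content was set against these differences because several of the strands last named are rich in it. Those strands were lower in the knockdown line at 48 h and are counted among the members here. The members' relation at 48 h is therefore partly built in. Over the 29 measured members with a sequence, the difference at 48 h ran against G+C with Pearson's r = -0.47 and Spearman's rho = -0.50. The 13 members at 55% G+C or more had a median difference of -0.76 at 48 h, and the 16 below had 0.16. All 298 tested probes with a sequence showed a weaker relation in the same direction, r = -0.29, and at 24 and 72 h the members' r was 0.30 and 0.17. Among probes at 50 or more on all 6 arrays, r at 48 h was -0.24 over the 15 members and -0.26 over all 158, so the members' relation was no stronger there. The points are miRNAs read from the same pair of arrays, so the values are descriptions. Median G+C was 52.4% in measured members, 54.5% in low members, 47.8% in the other measured mouse probes and 50% in the other low ones.

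**Figure D5:**
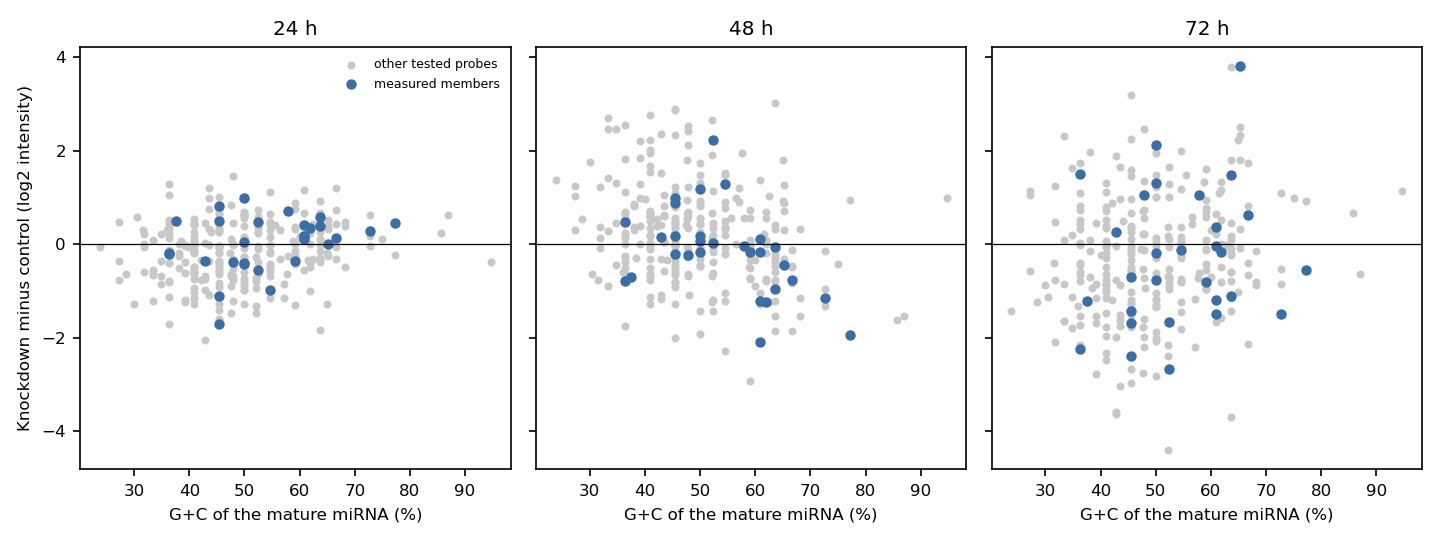
Each panel sets the knockdown minus control difference (normalised log2 intensity) against the G+C percent of the mature strand at 24, 48 or 72 h; blue points are the 29 measured members with a sequence and grey points the other tested probes. At 48 h the members at 55% G+C or more have a median of -0.76 and the rest 0.16.

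The other members on all 6 arrays fell into a few orders over the arrays. miR-3098-3p read 3889, 1344 and 1021 in the knockdown line and 2836, 974 and 2772 in the control line, with differences of 0.48, 0.03 and -1.66. miR-3068-3p read 1475, 578 and 680 in the knockdown line and 736, 606 and 1552 in the control line, with differences of 0.82, 0.18 and -1.44. Both had overlapping lines, and both were lower in the knockdown line at 72 h by more than 2-fold. For miR-3068-3p that difference turned to 0.09 under median scaling, which moved the median of all tested probes at 72 h from -0.39 to 0.60.

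A pair of members had the reverse order at 72 h. miR-3103-3p, from a hairpin within Rusf1, read 334, 173 and 1060.5 in the knockdown line and 308, 165 and 196 in the control line, with differences of 0.04, 0.06 and 1.31. miR-3066-5p, within the nucleolar protein gene Nol10, read 185, 169 and 686 in the knockdown line and 250, 73.8 and 73.5 in the control line, with differences of -0.18, 0.47 and 1.49. In both the knockdown array of 72 h stood above the 5 others. miR-3095-3p, within the lysophosphatidic acid receptor gene Lpar1, did so too, at 426 beside 64.2 and 61 on the earlier knockdown arrays and 149, 107 and 67 in the control line, with a difference of 1.06.

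miR-3099-3p and miR-3073a-3p shared another order. miR-3099-3p, within the deubiquitinase gene Usp29, read 64, 626 and 454 in the knockdown line and 302, 132 and 342 in the control line, with differences of -0.97, 1.28 and -0.13. miR-3073a-3p, within the asparaginase gene Aspg, read 118, 539 and 258 in the knockdown line and 432, 183 and 371 in the control line, with differences of -1.11, 0.87 and -0.70. The knockdown line was higher at 48 h alone in both. miR-3082-5p had the same signs, -0.41, 1.19 and -0.19, from intensities of 208, 494 and 200 and of 364, 181 and 189, but its 48 h difference was 0.05 with the upper spots alone and 2.13 with the lower ones.

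The remaining 2 members on all 6 arrays stayed within 2-fold at each time point. miR-3076-3p, within the transketolase gene Tkt, lay between 51.8 and 107 on all arrays with differences of 0.11, 0.12 and -0.03, the narrowest range of any measured member at 0.30 on the log2 scale. miR-3066-3p read 179, 164 and 93.2 in the knockdown line and 306, 126 and 211 in the control line, with differences of -0.42, 0.18 and -0.76. Among members on fewer arrays, miR-3077-3p lay between 43.8 and 248 and was lower in the knockdown line by 1.11 at 72 h. miR-3087-3p lay between 36 and 144 with differences between -0.37 and 0.25. miR-3090-3p lay between 15.2 and 132.

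Both arms were measured for 6 hairpins, those of miR-3066, miR-3069, miR-3072, miR-3081, miR-3084 and miR-3096a. For miR-3096a the 3p arm was taken from the probe named for miR-3096a-3p alone. So taken, the differences had the same sign in both arms for 4 of the 6 at each time point. The probe shared with miR-3096b-3p had differences of 0.16, -0.77 and -0.13, beside -0.30, 2.90 and -0.53 for miR-3096a-5p. Against that probe the signs were opposite at 24 and 48 h. At 72 h the arms of miR-3084 were both lower in the knockdown line, at -2.24 and -2.68, and those of miR-3069 were lower too, at -1.21 and -2.39. The arms of miR-3072 had opposite signs at 72 h, at -0.56 for 5p and 1.49 for 3p, and the latter turned to -0.97 with upper spots alone. The arms of miR-3066 went apart, at 1.49 for 5p and -0.76 for 3p. Pearson's r between arms over the 6 arrays ran from -0.41 for miR-3066 to 0.68 for miR-3096a, the shared probe left out.

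Low members were near background on most arrays but not on all. miR-3060-5p, from a hairpin within Rnf215, read 562 on the knockdown array of 48 h and 141 on that of 72 h, and between -208 and -6.5 elsewhere. Its value of -208 came from the control array of 72 h, where the background of its lower spots was 494.5. Its ratio at 48 h was at least 3.40-fold, with the upper spots at 563 and the lower ones at 560.5. At 72 h its difference was 1.69 on the log2 scale, but the bound there was only 1.32-fold. miR-3074-1-3p reached 380 and miR-3074-2-3p 129 on the same array and neither reached 50 on another. Of the 9 members that reached 50 on 1 array alone, 3 did so on the knockdown array of 48 h and 3 on the control array of 24 h, with 1 each on the knockdown arrays of 24 and 72 h and the control array of 48 h.

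Other low members had their signal elsewhere. miR-3067-5p read 522 and miR-3064-3p 178 on the control array of 48 h, where miR-3092-5p read 131 and miR-3085-3p 108. miR-3064-5p, from a hairpin within Ddx5, an RNA helicase of the Drosha complex, read 362 on the knockdown array of 72 h and 74.2 on that of 48 h. miR-3075-5p read 126 on the knockdown array of 72 h and nowhere else reached 50. miR-3068-5p read 160 and 100.2 on the control arrays of 24 and 72 h, and miR-3097-3p 154 on the latter. miR-3099-5p reached 104 on the knockdown array of 24 h. miR-3070b-3p, miR-3078-3p, miR-3078-5p, miR-3086-3p, miR-3091-3p and miR-3105-3p had highest values between 50.2 and 91.5.

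The other 56 members reached 50 on no array, and their values ran from -596 to 49.5. The lowest was that of miR-3083-5p on the control array of 72 h, where its mean background was 672. Both arms were among them for miR-3057, miR-3058, miR-3059, miR-3061, miR-3063, miR-3065, miR-3071, miR-3073b, miR-3079, miR-3088, miR-3089, miR-3094, miR-3101, miR-3104 and miR-3106. Their single strands were miR-3060-3p, miR-3062-5p, miR-3067-3p, miR-3070a-3p, miR-3073a-5p, miR-3074-5p, miR-3075-3p, miR-3076-5p, miR-3077-5p, miR-3080-3p, miR-3082-3p, miR-3083-5p, miR-3085-5p, miR-3086-5p, miR-3087-5p, miR-3090-5p, miR-3091-5p, miR-3093-3p, miR-3095-5p, miR-3097-5p, miR-3098-5p, miR-3100-5p, miR-3102-5p, miR-3102-5p.2-5p, miR-3103-5p and miR-3105-5p. An intensity near or below 0 says only that the probe was not above its local background.

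Some members are read from the strand opposite to another miRNA gene. Mir3074-1 and Mir3074-2 overlap Mir24-1 and Mir24-2, Mir3065 overlaps Mir338 and Mir3071 overlaps Mir136, each on the other strand. miR-24-3p was measured on all arrays, at 512, 1436 and 569 in the knockdown line and 1409, 1055 and 1016 in the control line. Within the knockdown line its highest value fell at 48 h, on the array that held the only values of 50 or more of the 3p strands of miR-3074. It was about as bright on the control array of 24 h, at 1409, where miR-3074-1-3p read -32.5 and miR-3074-2-3p -18.25. The 6 arrays thus do not show the strands rising together. miR-24-2-5p was measured on 3 arrays, at most 278, whereas miR-24-1-5p was at 218 or more on all 6. miR-338-5p reached 50 on 3 arrays, miR-338-3p, miR-136-5p and miR-136-3p on none, and the members opposite to them were low. Mir3073a and Mir3073b overlap each other on opposite strands, and only miR-3073a-3p of their 4 strands was measured.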

How the data were processed

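Per the labels' protocols, Hy3 was ligated to the 3′ ends of total RNA, and each array (locked nucleic acid probes) was read in that 1 colour; the scanner software was not given in the sources used here. The authors deposited, per the file headers, a foreground and a background-subtracted intensity for each spot. A second deposited table holds a ratio per probe, equal to the median background-subtracted intensity over 1 number per array (313.5 to 397) for 100% of filled values within 1e-06, and left blank where it did not exceed 0; medians of the columns run from 0.259 to 0.514, without centring, and how the numbers were chosen is unknown.

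Local background was corrected by normexp (offset 50, limma 3.58.1, R 4.3.3), log2 values of a probe's spots were averaged, and quantile normalisation was run over 3439 mouse, viral and unnamed probes. limma with trend and robust variances tested the 372 mouse probes at 50 or more on 3 arrays, adjusted by Benjamini-Hochberg over all of them, and was checked on simulated data. A side below 50 gives a bound, against the higher of its own value and the lowest normalised value at or above 50 on that array; if its own value is the higher one, the measured ratio is given. No line has replicate cultures at a time point, so p-values do not measure the spread between such cultures. They rest on what each fit leaves over, with variances moderated over all tested probes. For the mean difference this is how the difference between the lines varied over the time points. Having 1 array per line and time limits precision.

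Members, lists and tests were chosen with earlier results of these data known. Values on all arrays were given for members on all 6 arrays and the arms of miR-3081, miR-3084 and miR-3096. They were also given for the 3 largest mean differences each way and the 3 smallest p of each slope. Members past any threshold and measured members past 2-fold at 2 or more time points were included too. Others were named after their values were seen. Alternatives covered background, offset, scaling, filters, the deposited ratios, the variance model, the time term, thresholds and left-out arrays; array median background and upper or lower spots alone were added after seeing the data.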

Additional observations from a re-analysis of the deposited data

Results flagged for a closer look

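For 2 members the difference between the lines at 48 h differed from that at 24 and 72 h by limma's term for the line at 48 h, adjusted over all tested probes. For miR-3096a-3p the term was 7.62 on the log2 scale, with the knockdown line higher at 48 h and lower at 24 and 72 h. For miR-3096a-5p it was 3.31, with both other time points within 2-fold. That probe counted as measured only through arrays on which a high value raises the term. The term has 1 residual degree of freedom and was chosen with the alternation known. On the knockdown array of 48 h the upper spots of both probes were brighter than the lower ones, and the probe shared by miR-3096a-3p and miR-3096b-3p had a term of -0.78. The part of these values in the result was not tested.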

How the results depend on the processing

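With 1 array per line and time, spot errors cover spot noise only, and values near background have no depth below an intensity of 50. The mean difference called 0 members and 0 probes under every alternative except leaving out both arrays of 48 h, which gave 1 member (miR-3096a-3p) and 3 probes (ranges over left-out arrays 0 to 1 and 0 to 3). Over left-out arrays or time points the mean differences ran from -3.34 to 0.99 for miR-3096a-3p, -0.41 to 1.30 for miR-3096a-5p and -0.22 to 1.90 for miR-3081-5p, and the slope of miR-3072-3p from -1.49 to 0.069; these changed sign. Without the time term and the 48 h knockdown array, miR-3096a-5p stood at -0.09, and without that term and the 72 h control array, miR-3096a-3p at 0.26. Slopes and their difference called none under any setting run. The difference of slopes and the 48 h term without a time point could not be fitted, since no residual degrees of freedom remain. The 48 h term called 13 probes, against 7 with a floor of 16, 6 with median scaling, 23 with cyclic loess, 28 with the authors' deposited ratios and 26 with upper spots alone. Of the 2 members it called, 1 passed with median scaling or array median background, and with lower spots alone 0 members and 0 probes passed (4 and 45 at an unadjusted p under 0.05). Adjusted p for miR-3096a-5p ran from 9.2e-06 to 0.405 over the alternatives and for miR-3096a-3p from 1.58e-10 to 0.178. Among members at 24 h, 0 were higher and 3 lower by 2-fold, against 12 and 8 with a floor of 16, 7 and 7 with the deposited ratios, and 4 and 5 at 1.5-fold; 1 was higher with an offset of 16, array median background or upper spots, 2 without normalisation or with lower spots, and 1 was lower at 4-fold. At 48 h, 9 higher and 8 lower became 13 lower with the floor or the deposited ratios, 14 lower at 1.5-fold, and 5 higher and 1 lower at 4-fold. At 72 h, 8 higher and 13 lower became 13 and 4 with median scaling, 2 and 4 at 4-fold, and 4 higher without normalisation. At 72 h, miR-3068-3p turned to 0.090 and miR-3102-3p to 0.29 with median scaling, and miR-3072-3p to -0.97 with upper spots alone. Measured members numbered 16 where all 6 arrays were required and 30 to 32 with 1 array left out. The cause of these shifts was not tested.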
